A study of Mus musculus with 8 samples.

Results

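The genes described here are 9 DNA repair and damage response genes linked to the tumour suppressor p53: Ddb2, Xpc, Polk, Polh, Rev3l, Rrm2b, Gadd45a, Gadd45b and Gadd45g. They were taken by name from the non-control spots of the arrays, which gave 11 probes of 55681, and were set out as GFP-positive against GFP-negative cells. The cells were MAM326, a mouse mammary cancer line, grown in culture, sorted by GFP 2 days after seeding and measured on 8 one-colour Agilent arrays. There were 4 GFP-positive and 4 GFP-negative samples, replicates 1 to 4 in each, from 4 experiments at different passages. Both fractions came from the same line, no drug or other treatment is named, and the sources used here leave unnamed what drives GFP. The labels name no clone and tie no array to its experiment. The p-values below therefore measure spread between arrays, which may in part be technical.

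Cells that meet DNA damage can remove the lesion, copy past it, or pause the cell cycle, and p53 switches on genes of each kind. In nucleotide excision repair, Ddb2 and Xpc find distorted bases, such as those made by ultraviolet light, and hand them to the proteins that cut out the damaged strand. In translesion synthesis, Polh, Polk and Rev3l copy across lesions that stop the main replicative polymerases. Rrm2b supplies deoxynucleotides, and the Gadd45 proteins bind Pcna and stress kinases. Much of what is known of p53 control of Ddb2, Xpc and Rrm2b comes from human cells.

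Of the 9 genes, none passed an adjusted p of 0.05 in limma when each was represented by its brightest probe: 0 of 9 were called, against 2.55% of the 19694 genes tested (1.81% higher and 0.741% lower in GFP-positive cells). At an unadjusted p under 0.05, 2 of the 9, Polk and Ddb2, were higher in GFP-positive cells, as were 7.83% of all genes, and 0 were lower, against 15.1% of all genes. The median log2 difference of the 9 was -0.04, and that of all genes was -0.06. The nearest to the threshold was Polk, with a 1.89-fold higher level in the GFP-positive cells and an adjusted p of 0.0592. Its dimmer probe did pass when all 27591 kept probes were tested together. Among 28 other p53 targets, 15 rose and 0 fell in the same fit, with a median of 0.88.

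Of the 11 probes, 10 were well above background on all 8 arrays. The exception was a further probe of Rrm2b, well above background on 0 of 8 arrays, which was not tested. Values below are log2 levels relative to each array's 75th percentile, so a level of 0 is that percentile. Levels are compared between arrays for a given probe, never between probes. On each array, 45.1% to 57.4% of all probes passed the extraction program's test of signal over background. The epithelial markers Krt8, Krt18, Epcam, Cdh1, Krt5 and Krt14 were well above background on all 8 arrays. Markers of other cells were detected in part. Of 7 macrophage and leukocyte markers, Csf1r, Cd68, Itgam, Cd3e and Cd79a passed the same criterion on 8 arrays, and Ptprc and Adgre1 on 1 each. Of 4 endothelial markers, Kdr passed it on 8, Pecam1 on 6, and Cdh5 and Tek on 0. Of 6 fibroblast markers, Thy1 passed it on 7 arrays and the others on 8. Cd68, found in macrophages and in other cells, was the 1 of these other-lineage markers that rose (1.00, adjusted p = 0.00436). Vim, an intermediate filament gene of mesenchymal cells, lay between 5.22 and 6.96 in GFP-positive and between 6.44 and 7.50 in GFP-negative arrays, with a difference of -0.79 (adjusted p = 0.281), and was well above background on 8 arrays.

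Both Polk probes carry the clearest difference among these genes, so their first 30 bases (of 60) are shown to identify them. They match separate stretches of the same transcript, and no letters are capitalised.
A_55_P2000533: tgtgagcagatgcagttagaatcggccatg
A_55_P2205690: aagtaaaaactcgtgcatctaccgttccgg

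The 3 Gadd45 genes are a family that responds to stress in different ways. The sequence just before their starts is shown to set them beside each other. A Polk window is shown because it holds a match to the p53 consensus decamer, and the window of the other Polk start held 0. That other window, at chr13:96542550-96542829 on the minus strand, lies upstream of the one shown. Windows run from 250 bases before a start to 30 after it, 5′ to 3′ on the gene's strand, from RefSeq on GRCm38.p6. Of the 9 genes, 5 matched the promoter table, with 6 windows in all. Capitals mark 4 motifs searched on both strands: the octamer ATTTGCAT, the CCAAT box, the p53 consensus decamer and, for the core promoter, TATAAA.
Gadd45a, chr6:67037378-67037657, minus strand: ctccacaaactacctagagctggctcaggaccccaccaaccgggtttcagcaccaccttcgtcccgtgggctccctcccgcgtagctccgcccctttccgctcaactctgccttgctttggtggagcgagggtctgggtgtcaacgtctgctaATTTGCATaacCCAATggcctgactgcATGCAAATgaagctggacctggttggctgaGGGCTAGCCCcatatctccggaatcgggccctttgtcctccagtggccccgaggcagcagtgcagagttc
Gadd45b, chr10:80929841-80930120, plus strand: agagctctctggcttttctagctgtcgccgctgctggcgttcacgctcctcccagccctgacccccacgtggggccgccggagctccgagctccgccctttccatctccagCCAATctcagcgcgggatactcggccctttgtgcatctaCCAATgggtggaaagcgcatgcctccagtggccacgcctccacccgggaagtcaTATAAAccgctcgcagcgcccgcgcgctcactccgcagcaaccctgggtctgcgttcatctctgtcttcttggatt
Gadd45g, chr13:51846425-51846704, plus strand: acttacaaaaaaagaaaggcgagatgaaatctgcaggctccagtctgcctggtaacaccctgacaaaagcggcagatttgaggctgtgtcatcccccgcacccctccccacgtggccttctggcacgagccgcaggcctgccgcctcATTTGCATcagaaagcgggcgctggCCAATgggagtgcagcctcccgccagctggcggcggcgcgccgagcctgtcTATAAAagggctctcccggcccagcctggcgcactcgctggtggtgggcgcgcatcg
Polk, chr13:96519158-96519437, minus strand: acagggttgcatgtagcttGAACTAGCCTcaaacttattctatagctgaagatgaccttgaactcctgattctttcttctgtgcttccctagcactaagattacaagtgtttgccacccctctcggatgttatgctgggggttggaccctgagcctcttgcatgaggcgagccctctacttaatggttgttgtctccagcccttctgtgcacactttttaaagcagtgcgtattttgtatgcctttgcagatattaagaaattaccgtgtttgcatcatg

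The octamer, the site of Oct transcription factors, lay 97 and 70 bases before the Gadd45a start and 103 before that of Gadd45g, with 0 matches for Gadd45b. It was looked for after the windows had been read. Of 32851 such windows, 1.69% held it. A CCAAT box was found in all 3 Gadd45 windows and in 36.1% of all windows, and the TATAAA element in those of Gadd45b and Gadd45g, 46 and 27 bases before the start, and in 13.1% of all. The p53 consensus decamer began 40 bases before the Gadd45a start and 231 before this Polk start, and 7.84% of all windows held it. Single decamers were searched for, not pairs of them. An E-box (CACGTG), in 6.79% of windows, lay in the Gadd45b and Gadd45g windows. A GC box (GGGCGG), in 34.7%, lay in those of Gadd45a, Gadd45b and Polh and in that of the other Polk start. These matches are descriptions of the letters and not evidence of binding.

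Among the translesion polymerases, Polk differed most. DNA polymerase kappa copies past bulky adducts on guanine. Its brighter probe is at chr13:97251653-97251712 (mm9, minus strand). It read 0.46, -0.17, 0.56 and -0.23 in GFP-positive replicates 1 to 4, against -0.58, -1.02, -0.64 and -0.82 in GFP-negative replicates 1 to 4. Every GFP-positive array lay above every GFP-negative one. Of the 9 genes Polk was the only one whose groups did not overlap, and over all genes the GFP-positive arrays lay wholly above in 5.06% and wholly below in 11.6%. The GFP-positive mean was 0.15 ± 0.41 and the GFP-negative mean -0.76 ± 0.19 (SD, n = 4 each). The difference was 0.92 ± 0.21 (standard error of the limma fit), with a 95% interval of 0.44 to 1.39 and an adjusted p of 0.0592.

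The dimmer Polk probe, at chr13:97256835-97256894 (mm9, minus strand), gave a difference of 0.85, with a smaller standard error. It read -1.64, -2.12, -1.49 and -1.99 in GFP-positive replicates 1 to 4, against -2.45, -2.96, -2.65 and -2.58 in GFP-negative replicates. Again the groups did not overlap, with GFP-positive replicates 1 and 3 the highest in both probes. In the fit over all kept probes this probe rose by 0.85 ± 0.17, or 1.80-fold, with an adjusted p of 0.0484 in limma, and the brighter probe had an adjusted p of 0.0655. It was the only call among the 10 kept probes of these genes, and 2.00% of all kept probes were called, 1.52% as higher. That call was kept without GFP-positive replicate 2 (adjusted p = 0.0457) and lost without any 1 of the other 7 arrays, with adjusted p up to 0.164. With the mean of both probes as the gene's value, Polk passed (0.88, adjusted p = 0.0497).

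**Figure D1:**
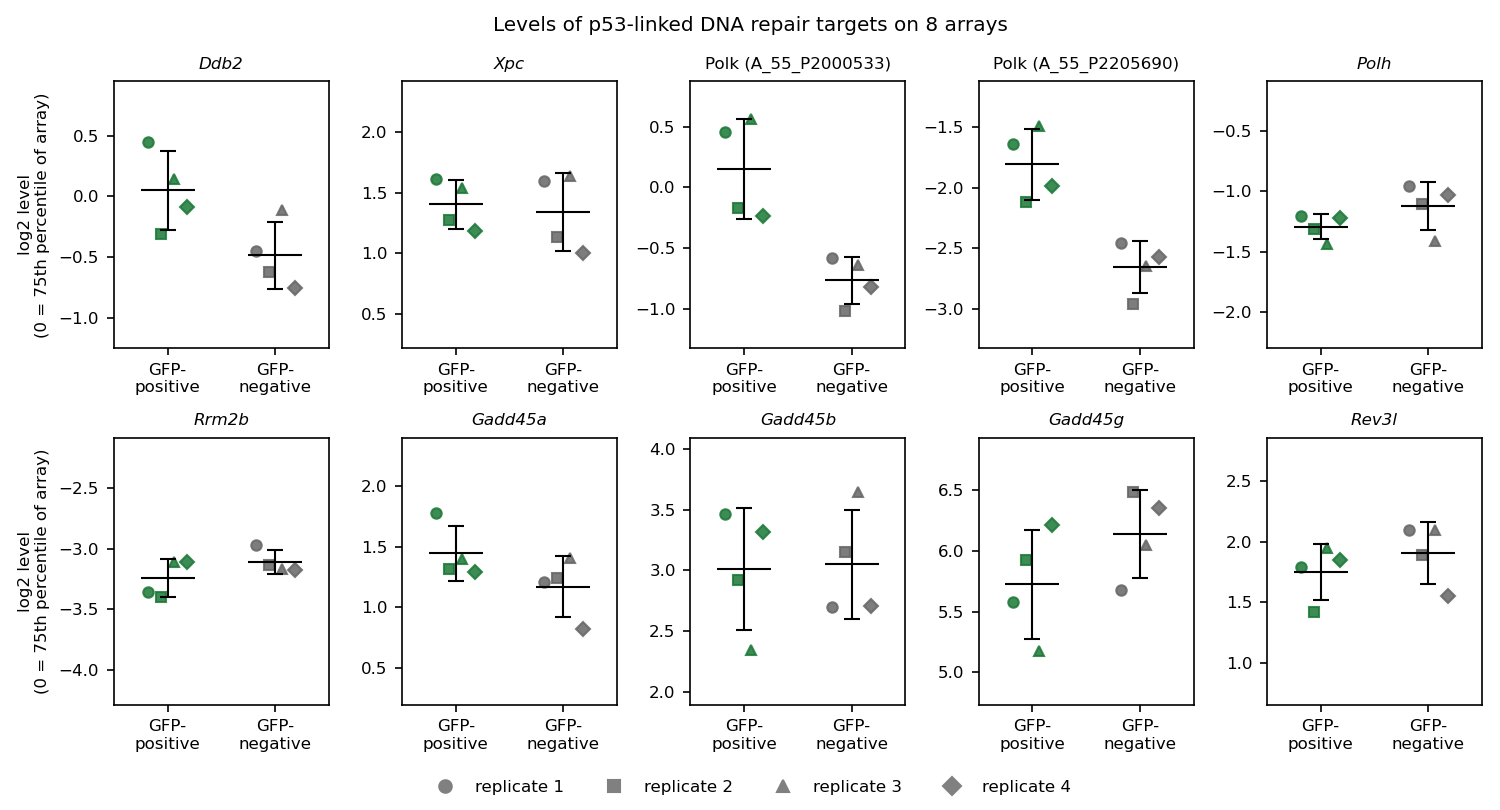
Log2 level of each well-measured probe, relative to the array's 75th percentile, on 4 GFP-positive (green) and 4 GFP-negative (grey) arrays; marker shapes are replicate numbers, bars are means ± SD, and all panels span the same range. The groups separate for both Polk probes and overlap for every other gene.

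The other translesion polymerases did not pass. Polh encodes DNA polymerase eta, which copies past ultraviolet-induced thymine dimers, and its probe is at chr17:46309069-46309128 (mm9, minus strand). It read -1.20, -1.31, -1.43 and -1.22 in GFP-positive replicates 1 to 4, against -0.96, -1.11, -1.41 and -1.03 in GFP-negative replicates. GFP-negative replicates 1, 2 and 4 lay above all the GFP-positive arrays, and GFP-negative replicate 3 lay among them. The difference was -0.17 ± 0.11, with an interval of -0.43 to 0.09 (adjusted p = 0.412, limma).

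Rev3l encodes the catalytic subunit of DNA polymerase zeta, which extends strands beyond a lesion, and its probe is at chr10:39594632-39594691 (mm9, plus strand). It read 1.79, 1.42, 1.95 and 1.85 in GFP-positive replicates 1 to 4, against 2.10, 1.89, 2.09 and 1.55 in GFP-negative replicates. The groups overlapped, and the lowest array, GFP-positive replicate 2, was followed by GFP-negative replicate 4. The difference was -0.16 ± 0.16, with an interval of -0.53 to 0.21 (adjusted p = 0.601, limma).

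Of the damage sensors of excision repair, Ddb2 had the larger difference. Ddb2 is the lesion-binding subunit of the UV-damaged DNA binding complex, and its probe is at chr2:91052013-91052072 (mm9, minus strand). It read 0.45, -0.31, 0.15 and -0.09 in GFP-positive replicates 1 to 4, against -0.46, -0.63, -0.11 and -0.76 in GFP-negative replicates. The groups overlapped only because GFP-positive replicate 2 lay below GFP-negative replicate 3. The difference was 0.54 ± 0.19, 1.45-fold, with an interval of 0.09 to 0.99 (unadjusted p = 0.0243 and adjusted p = 0.156, limma).

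Xpc, which recognises many kinds of helix distortion, read 1.62, 1.27, 1.54 and 1.19 in GFP-positive replicates 1 to 4, against 1.60, 1.14, 1.63 and 1.00 in GFP-negative replicates. Its probe is at chr6:91439856-91439915 (mm9, minus strand). In both groups replicates 1 and 3 lay above replicates 2 and 4, and the groups covered nearly the same range. The GFP difference was 0.06 ± 0.17, with an interval of -0.34 to 0.46 (adjusted p = 0.871, limma).

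Rrm2b encodes p53R2, the small subunit of ribonucleotide reductase that serves repair and resting cells. Its kept probe is at chr15:37853821-37853880 (mm9, minus strand). It read -3.35, -3.40, -3.11 and -3.11 in GFP-positive replicates 1 to 4, against -2.97, -3.14, -3.17 and -3.18 in GFP-negative replicates. The arrays lay close together and the groups overlapped. The difference was -0.13 ± 0.10, with an interval of -0.36 to 0.09 (adjusted p = 0.458, limma). Its raw signals lay between 41.3 and 70.1, and 23.3% of its 60 bases are G or C.

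The Gadd45 genes encode small acidic proteins that bind Pcna, Cdk1 and the kinase Map3k4. Gadd45a, a known p53 target, has its probe at chr6:66985376-66985435 (mm9, minus strand). It read 1.78, 1.31, 1.40 and 1.29 in GFP-positive replicates 1 to 4, against 1.21, 1.24, 1.41 and 0.82 in GFP-negative replicates. GFP-positive replicate 1 was the highest and GFP-negative replicate 4 the lowest, and the other 6 arrays lay between 1.21 and 1.41. The difference was 0.27 ± 0.16, with an interval of -0.09 to 0.64 (adjusted p = 0.332, limma).

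Gadd45b, which also answers to NF-kappa-B and TGF-beta, has its probe at chr10:80394367-80394426 (mm9, plus strand). It read 3.47, 2.92, 2.34 and 3.32 in GFP-positive replicates 1 to 4, against 2.70, 3.15, 3.65 and 2.70 in GFP-negative replicates. Its spread was the widest of the 9 genes in both groups, with SDs of 0.50 and 0.45. The difference was -0.04 ± 0.30, with an interval of -0.73 to 0.65 (adjusted p = 0.953, limma).

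Gadd45g, a cytokine-responsive member, has its probe at chr13:51943733-51943792 (mm9, plus strand). It read 5.58, 5.92, 5.18 and 6.21 in GFP-positive replicates 1 to 4, against 5.68, 6.49, 6.05 and 6.36 in GFP-negative replicates. The lowest arrays were GFP-positive replicates 3 and 1 and the highest GFP-negative replicates 2 and 4. The difference was -0.42 ± 0.26, the most negative of the 9, with an interval of -1.01 to 0.17 (adjusted p = 0.365, limma).

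The repair genes were then set beside other genes of the same pathways. Of the 28 other p53 targets 53.6% were called, all higher, and 27 had a positive sign. The largest rises were Dcxr, a carbonyl reductase (2.64 ± 0.21, adjusted p = 0.00102), Trp53inp1, a stress-induced nuclear protein (2.39 ± 0.25, adjusted p = 0.00366), and Cdkn1a, the cell cycle inhibitor p21 (2.21 ± 0.28, adjusted p = 0.00753). The receptor Eda2r stayed under the background criterion on 4 of 4 GFP-negative arrays. Its log2 difference ran from 0.57 to 2.77 over the alternative settings. With the main processing its fold was at least 3.63. That bound sets the GFP-positive mean against, on each GFP-negative array, the higher of the probe's own signal and the lowest signal well above background. Every GFP-positive array averaged higher over the 28 genes, with means between 2.88 and 3.35 in GFP-positive and between 1.80 and 2.38 in GFP-negative arrays. Leaving out GFP-positive replicate 1 gave 9 that rose, as did leaving out GFP-negative replicate 4. This list was chosen with earlier results of these arrays known, so its direction is not independent evidence.

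**Figure D2:**
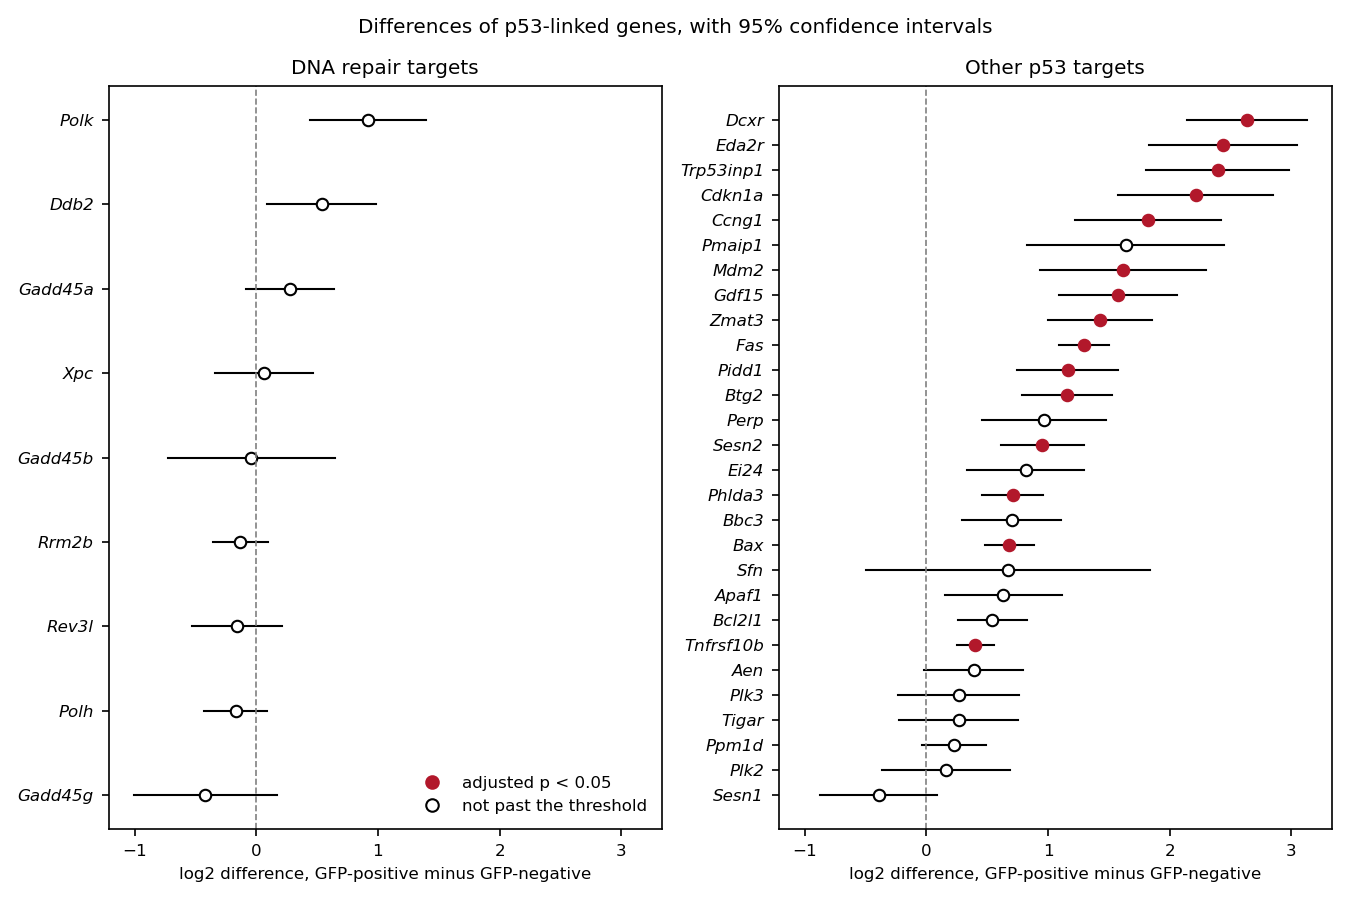
Log2 difference, GFP-positive minus GFP-negative, for the 9 repair genes and 28 other p53 targets, with 95% intervals of the limma fit; filled points passed an adjusted p of 0.05. The interval of Eda2r comes from signals not well above background in GFP-negative cells. The repair genes lie between -0.42 and 0.92 with 0 filled, and 15 of the other targets are filled.

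Of 28 further nucleotide excision repair genes, 1 rose and 0 fell, with a median of -0.12, against -0.06 over all genes. At an unadjusted p under 0.05, 2 of the 28 were higher and 10 lower, where 7.83% of all genes were higher and 15.1% lower. The gene that rose was Ercc5, the XPG endonuclease that cuts on the 3′ side of a lesion. It read 1.16, 0.93, 1.32 and 0.88 in GFP-positive replicates 1 to 4, against 0.10, -0.23, -0.27 and 0.12 in GFP-negative replicates. The groups did not overlap, and the difference was 1.14 ± 0.14, 2.21-fold (adjusted p = 0.00693, limma), which passed without each of the 8 arrays in turn but not with the replicate block (adjusted p = 0.0524) or within row 2 of the slide (0.363). Ddb1, the partner of Ddb2, differed by -0.17 ± 0.07 (adjusted p = 0.181) and was picked out for that role.

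Of 20 translesion synthesis genes, which include Poli, Rev1 and Rad18, 0 passed in limma. At an unadjusted p under 0.05, 1 was higher and 6 were lower (7.83% and 15.1% of all genes), and the median was -0.15, against -0.06 over all genes. Of 15 deoxynucleotide supply genes 0 passed, the median was -0.16, and 4 were lower at that unadjusted p, with 0 higher. Of 17 measured Gadd45 partners and stress kinases 0 passed, with 3 lower at an unadjusted p under 0.05 and a median of -0.12.

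In other repair pathways 1 gene passed. Exo1, an exonuclease of recombination and mismatch repair, read 3.25, 3.48, 3.45 and 3.40 in GFP-positive replicates 1 to 4, against 3.91, 3.97, 3.72 and 3.99 in GFP-negative replicates. It fell by 0.50 ± 0.09 (adjusted p = 0.0310), with groups that did not overlap, and with 1 array left out kept its call only without GFP-positive replicate 2 or GFP-negative replicate 3, with adjusted p of up to 0.109 without the others. That call was also lost with the replicate block (adjusted p = 0.112), with slide row as a block (0.0617), without a filter on dim probes (0.155), with a filter of 1 array (0.0579) and within either row of the slide (0.0754 in row 1 and 0.453 in row 2). It was 1 of 20 homologous recombination genes, with a median of -0.14, against -0.06 over all genes. Of these 20, 6 were lower by the unadjusted threshold and 0 higher. By limma 0 of 11 end joining, 17 base excision repair, 8 mismatch repair and 14 Fanconi anaemia genes passed. At an unadjusted p under 0.05 they counted 0, 4, 1 and 4 lower and 0 higher. By that threshold 15.1% of all genes were lower and 7.83% higher.

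The arrays lay in 2 rows of a single slide, and the GFP difference was also taken within each row. Row 1 held GFP-positive replicates 1 and 3 and GFP-negative replicates 2 and 4, and row 2 the others. Within row 1, with 2 arrays against 2, Polk rose by 1.43 ± 0.14 (adjusted p = 0.0232) and Ddb2 by 0.99 ± 0.16 (adjusted p = 0.0466). These were 2 of the 9 genes, and 5.31% of all genes were called in that row, 3.17% as higher. Gadd45g differed by -1.04 ± 0.18 (adjusted p = 0.0542) and Xpc by 0.51 ± 0.12 (adjusted p = 0.101). Within row 2, 0 of 19694 genes passed in limma and 2149, with 2 of the 9 among them, had an unadjusted p under 0.05. There Polk differed by 0.41 ± 0.10, Ddb2 by 0.09 ± 0.18, Gadd45g by 0.21 ± 0.20 and Xpc by -0.39 ± 0.10. In both rows the sign was positive for Polk and Ddb2, and it differed between rows for Xpc and Gadd45g. For Gadd45a the values were 0.56 in row 1 and -0.0078 in row 2, and for Rev3l 0.15 and -0.46. Polh, Rrm2b and Gadd45b were negative in both rows.

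The test of the difference between rows passed for Polk (row 2 minus row 1 -1.01, adjusted p = 0.0489, limma), 1 of the 9, and 1.22% of all genes passed it. Xpc just missed (-0.89, adjusted p = 0.0508), and Gadd45g differed by 1.25 (adjusted p = 0.0973) and Ddb2 by -0.91 (adjusted p = 0.131). Polk's call on this test was lost without any 1 of the 8 arrays. By the layout this difference equals 2 times the mean of replicates 2 and 4 minus that of replicates 1 and 3, both groups pooled, and the row therefore cannot be told apart from the replicate numbers or the experiments. Replicates 2 and 4 averaged -0.56 and replicates 1 and 3 averaged -0.05 for Polk, 1.15 and 1.60 for Xpc, and 6.25 and 5.62 for Gadd45g. Beside this, between 50.9% and 57.4% of probes were well above background in row 1 and between 45.1% and 48.1% in row 2. The part of signal detection in these differences was not tested.

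**Figure D3:**
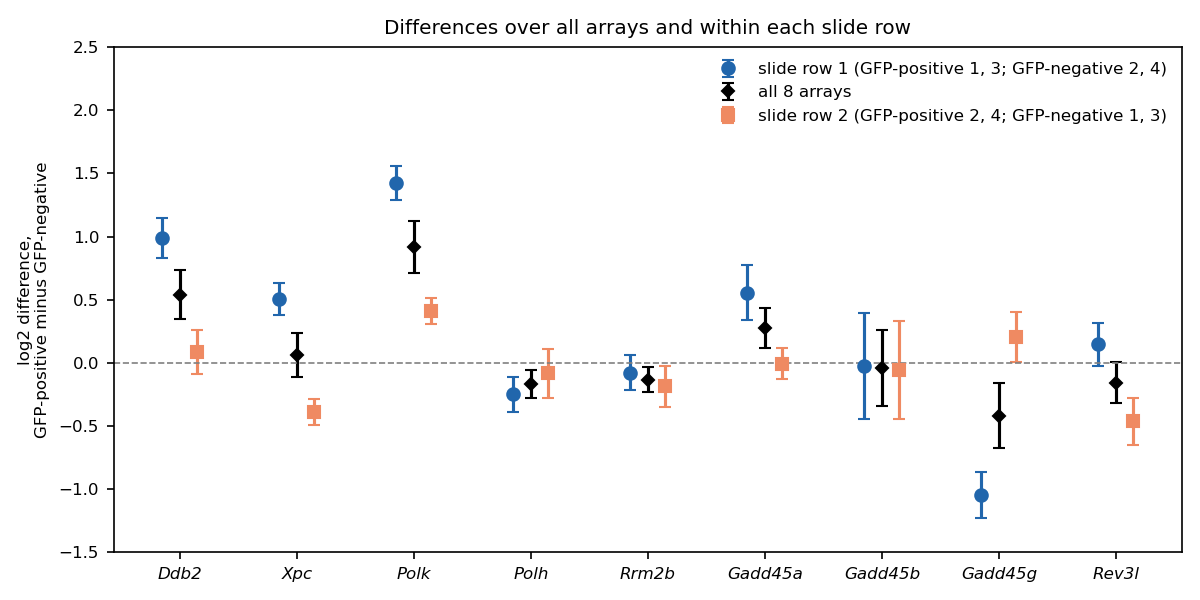
Log2 difference, GFP-positive minus GFP-negative, with its standard error, for each gene over all 8 arrays (black), within slide row 1 (blue) and within slide row 2 (orange). Polk is positive in all 3, while Xpc and Gadd45g change sign between the rows.

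Gadd45g ran with marker genes of fibroblasts, and Polk ran opposite to them. The mean level of 6 such genes (Col1a1, Col1a2, Pdgfra, Pdgfrb, Thy1 and Dcn) ran from -1.75 to 1.00 in GFP-positive arrays and from -0.08 to 1.94 in GFP-negative arrays. Of the 6, 5 had a negative difference and 0 passed in limma, with 1, Dcn, lower at an unadjusted p under 0.05. The order of the 8 arrays by Gadd45g was the same as by this mean (Spearman's rho 1, Pearson's r 0.99). For Polk rho was -0.88 over the 8 arrays and -1 within each group of 4. For Ddb2, Xpc and Gadd45a rho was -0.71, -0.67 and -0.57. For the remaining genes it lay between -0.21 (Rev3l) and 0.38 (Polh). The epithelial marker mean ran from 3.30 to 4.09 in GFP-positive and from 2.88 to 3.64 in GFP-negative arrays. All 6 of its genes had a positive difference and 0 passed in limma. At an unadjusted p under 0.05, 2 of them were higher, as were 7.83% of all genes. With the epithelial mean, rho was 0.93 for Polk and -0.98 for Gadd45g. These are descriptions over 8 arrays that share a slide and, in part, experiments, and the part of either marker list in the differences was not tested. In sorted bulk samples a change in the share of a cell type and a change per cell cannot be told apart.

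**Figure D4:**
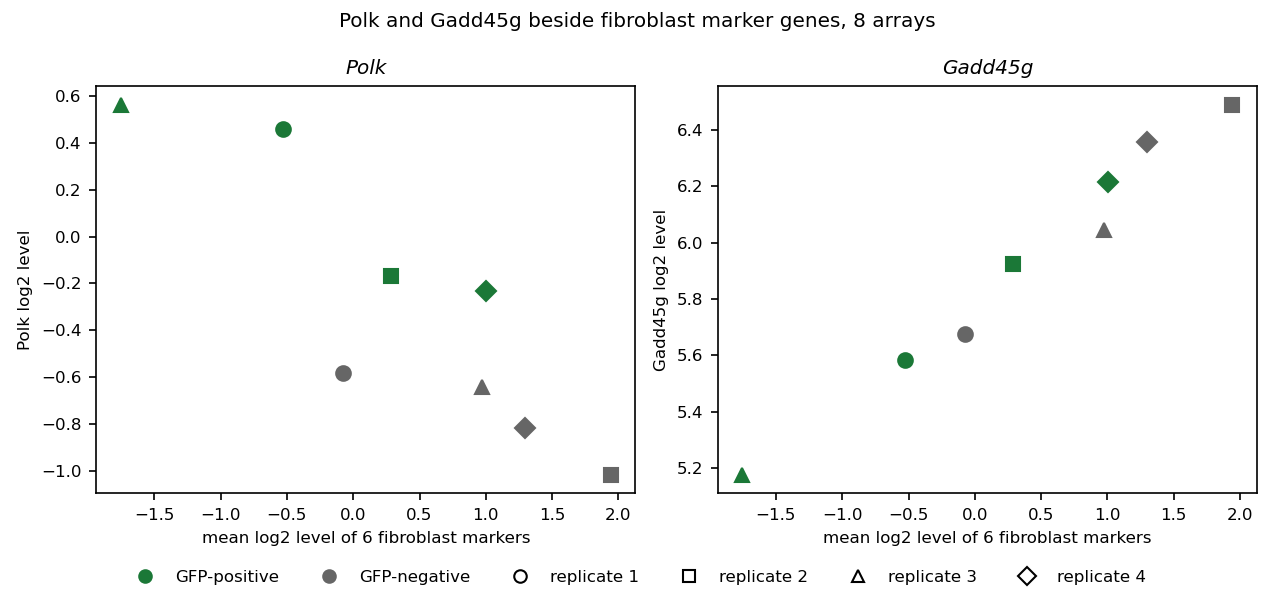
Log2 level of Polk and Gadd45g against the mean log2 level of 6 fibroblast markers on each of 8 arrays; colours are groups and shapes replicate numbers. Within each group Gadd45g rises along the axis and Polk falls (Spearman's rho 1 and -1). The part of the markers in the GFP differences was not tested.

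The genes whose levels over the 8 arrays were most like each repair gene were found by Pearson's correlation, over arrays that share their group, row and experiment. For Polk they were Mtarc1 (0.990) and Heca (0.988), of which Mtarc1 rose (0.86, adjusted p = 0.0403) and Heca did not pass (adjusted p = 0.0677). For Gadd45g they were Ankrd34a (0.997) and the collagen gene Col5a1 (0.996), with differences of -0.91 and -0.72 that did not pass. For Xpc they were the epithelial transcription factor gene Elf3 (0.976) and Tbc1d10a (0.970). For Ddb2 they were Lmntd2 (0.985) and Tfb1m (0.982), and for Gadd45b Zfas1 (0.990) and Enkd1 (0.974). For Gadd45a they were Capn10 (0.955) and Gm10272 (0.950), for Rev3l Zfp442 (0.978) and Foxa2 (0.969), for Rrm2b Trrap (0.970) and Pigw (0.957), and for Polh Usp40 (0.925) and Exoc8 (0.917). No member was among another member's 2 closest genes. Between members, Ddb2 and Gadd45a were the most alike (0.897) and Ddb2 and Polk followed (0.878), while Polk and Gadd45g ran opposite (-0.841).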

How the data were processed

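Each deposited file held the scanner output of 1 array from Agilent Feature Extraction 10.7.3.1, per the file headers, and those headers name mm9 as the build of the probe positions. The intensity values used were the deposited processed signal, corrected for background by the authors' extraction program, and for 1 alternative the mean signal and median local background. Arrays were not scaled to each other in the files. Spots marked as outliers were left out, 106 to 186 per array, and 0 were saturated. Log2 signals were set relative to the 75th percentile of each array and averaged per probe. A probe was kept where its signal was well above background on 4 or more of the 8 arrays (27591 of 55681), and each of 19694 genes was represented by its brightest kept probe. Accessions of 27509 probes matched RefSeq genes of GRCm38.p6, used for symbols.

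The fit of GFP-positive minus GFP-negative used limma 3.58.1 in R 4.3.3 (lmFit and eBayes, two-sided, no block), with Benjamini-Hochberg adjustment over all genes or all kept probes and a threshold of 0.05. Steps were tested on simulated data. The replicate numbers were not taken as pairs: correlations of same-numbered arrays' deviations from their group means were -0.03, 0.07, 0.02 and 0.18. The highest such correlations joined GFP-positive replicates 1, 2, 3 and 4 to GFP-negative replicates 3, 4, 1 and 2 (0.43, 0.34, 0.60 and 0.65). The labels do not give those pairs, and a block of them was not fitted. The 9 genes and all lists were chosen with earlier results of these data known. All 9 genes were named whatever their result, from each list up to 4 called genes with the largest differences, and for each gene its 2 closest by correlation. Alternatives were normexp, quantile or median scaling, other filters, a mean over probes, blocks, array weights, a variance trend, outlier spots kept, and leaving out each array. Precision is limited by there being 8 arrays.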

Additional observations from a re-analysis of the deposited data

Results flagged for a closer look

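The difference of Polk between GFP-positive and GFP-negative cells, taken within each row of the slide, was larger in row 1. Slide row 2 minus slide row 1 was -1.01 on the log2 scale (adjusted p = 0.0489, limma). It came from 0.41 in row 2 and 1.43 in row 1, and the sign was positive in both. By the layout, this contrast also sets replicates 2 and 4 against replicates 1 and 3, both groups pooled. A GFP difference that varies by row therefore cannot be told apart from a difference between replicate numbers or experiments. The call was lost when any array was left out, and the contrast then ran from -1.11 to -0.92. No array stood apart from the other 3 of its group by Dixon's criterion at 95% in any of 32 groups of 4 values, for the 10 kept probes and the 6 genes named from the lists. Chance would flag about 1 in 20.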

How the results depend on the processing

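Of the 9 genes, Polk was the only one called under some alternatives that used both rows. It passed with normexp, with probes well above background on all 8 arrays, with the mean of a gene's probes, with array weights and with a robust prior that follows intensity (the trend), 1 member each time. In these settings 782, 720, 526, 1444 and 1164 genes passed in all, of 19694 tested, or of 17255 with the 8-array filter. Within slide row 1, 2 members passed (3 probes). Member probes called numbered 2 with normexp, with the 8-array filter (770 probes in all), with array weights and with the trend. They numbered 0 without a filter, with the filter of 1 array, with the replicate block, with row as a block and within row 2. Without each array in turn, 0 members and between 0 and 1 member probes passed.

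Of all genes 503 passed, and 782 with normexp, 151 without a filter, 274 with the 1-array filter, 214 with the replicate block, 277 with row as a block, 1046 and 0 within rows 1 and 2, 1444 with array weights, 1164 with the trend, and between 150 and 422 without each array. Of all probes 552 passed, and 896, 160, 295, 220, 335, 1277, 0, 1852 and 1348 under these settings in that order, with 181 to 439 without each array. Array weights gave 672 genes higher and 772 lower, against 357 and 146. Of the 8 arrays, 0 correlated best with the array of the other group that had their own number. The replicate block joined same-numbered arrays, and so not the arrays that were most alike. With the replicate block Polk had an adjusted p of 0.0562 and Ercc5 one of 0.0524. The smaller counts without a filter come with more genes tested (34761), and the cause of the other shifts was not tested.

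The row test called 3 members with normexp, 2 with quantile scaling and with the 8-array filter, 0 with median scaling, without a filter, with the 1-array filter and with the mean of probes, and 0 to 0 without each array. The share of all genes passing that test was counted only with the main processing (1.22%). These member counts therefore have no share to be read against. Signs turned for Gadd45b with quantile scaling (0.029) and array weights (0.12), for Rev3l within row 1 (0.15), and within row 2 for Xpc (-0.39), Gadd45a (-0.0078) and Gadd45g (0.21). Without each array Xpc ran from -0.053 to 0.16 and Gadd45b from -0.19 to 0.18. The row difference of Rrm2b turned with normexp (0.086) and quantile scaling (0.0062). Without each array it ran from -0.26 to 0.038 for Rrm2b, from -0.60 to 0.53 for Gadd45b and from -0.059 to 0.39 for Polh. The slide and the scan could not be fitted as blocks, since all arrays share them, and these alternatives were not run.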
